A study of Homo sapiens with 6 samples.

Results

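Gene starts are where RNA polymerase II (RNAPII) assembles on DNA, and the regions described here are the stretches of chromatin within 1 kb of a gene start that were enriched for the enzyme in HepG2 cells, a human hepatoma line. They were chosen by position alone, as the regions annotated as promoter at a distance of at most 1000 bp from the nearest start. They numbered 85106 of the 271336 regions in 4 lists. The lists came from ChIP-seq of untreated cells with antibodies to Rpb1, the largest RNAPII subunit, and to Rpb1-pSer2, which is Rpb1 phosphorylated on serine 2 of its C-terminal repeats. Each antibody was used once in SHP-1-WT cells, a CRISPR control line that received a nontargeting guide, and once in SHP-1-KO cells, in which the phosphatase gene PTPN6 (SHP-1) was disrupted in exons of its phosphatase domain. Both were grown from single cells, so SHP-1 status, clone and library cannot be told apart.

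RNAPII is recruited to a start by general transcription factors, begins RNA synthesis, and at many genes pauses a short way downstream until the kinase P-TEFb releases it. Serine 2 is phosphorylated as the enzyme moves into productive elongation, so this mark is known to build up along gene bodies and toward their ends. In hepatocyte-like cells the genes of plasma proteins, liver transcription factors and lipid metabolism are among those that are transcribed.

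Start regions made up 44.6% of the WT Rpb1 list (20525 of 46045, 95% interval 44.1 to 45.0) and 47.4% of the SHP-1-KO Rpb1 list (19708 of 41605, 46.9 to 47.8). They made up 23.9% of the WT Rpb1-pSer2 list (24527 of 102674, 23.6 to 24.2) and 25.1% of the SHP-1-KO Rpb1-pSer2 list (20346 of 81012, 24.8 to 25.4). The share was therefore higher for Rpb1 than for the phosphorylated form in both cells. In the decile of regions with the highest fold enrichment over input, start regions were 96.4% in either Rpb1 list, 38.6% in the WT Rpb1-pSer2 list and 39.6% in the SHP-1-KO Rpb1-pSer2 list. Each sample is 1 library, and read depth is not given in the sources used here, so fold enrichment is compared between libraries as listed, with no replicate error.

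The sequences just before some of these starts are shown to let the reader see the kinds of promoter that carried polymerase. Each runs 5′ to 3′ on the strand of its gene, from 80 bases before the RefSeq start to 20 bases from it, on GRCh38.p14. Capitals mark TATAAA (the TATA box motif), CCAAT and GGGCGG (the GC box bound by Sp1 family factors), on either strand. The first 4 belong to genes with high Rpb1 within 1 kb of the start and a TATAAA in a GC-rich promoter. For P4HB this Rpb1 was 81.3 (WT) and 90.4 (SHP-1-KO). Rpb1 over a region assigned to another gene, ARHGDIA, had the same values, and their shared origin was not tested. CEBPA encodes a liver transcription factor (chr19:33302515-33302614, minus strand), RBP4 the carrier of retinol (chr10:93601216-93601315, minus strand), FOXA3 a liver forkhead factor (chr19:45864246-45864345, plus strand) and P4HB protein disulfide isomerase (chr17:81860516-81860615, minus strand).
CEBPA: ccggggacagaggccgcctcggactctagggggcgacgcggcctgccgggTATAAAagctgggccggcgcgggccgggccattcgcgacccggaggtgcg
RBP4: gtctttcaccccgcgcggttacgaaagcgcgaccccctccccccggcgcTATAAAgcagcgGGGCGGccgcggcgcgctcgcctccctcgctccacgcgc
FOXA3: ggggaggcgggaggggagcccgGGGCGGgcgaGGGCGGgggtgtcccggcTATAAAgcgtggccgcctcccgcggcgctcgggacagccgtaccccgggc
P4HB: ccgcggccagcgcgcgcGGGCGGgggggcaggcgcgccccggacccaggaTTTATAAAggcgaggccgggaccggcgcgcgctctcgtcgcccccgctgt

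The next 3 belong to plasma protein genes with few CpG. AHSG encodes fetuin-A (chr3:186612980-186613079, plus strand), FGA the fibrinogen alpha chain (chr4:154590723-154590822, minus strand) and APOA2 an apolipoprotein of HDL (chr1:161223609-161223708, minus strand). Their promoters held 49.3%, 47.0% and 53.0% G and C over the 300 bases of the RefSeq window, against 80.7% for CEBPA and 76.0% for RBP4.
AHSG: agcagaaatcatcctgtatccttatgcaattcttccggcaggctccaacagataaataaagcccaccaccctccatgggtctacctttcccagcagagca
FGA: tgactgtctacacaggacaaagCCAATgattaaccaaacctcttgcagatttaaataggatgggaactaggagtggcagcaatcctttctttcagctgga
APOA2: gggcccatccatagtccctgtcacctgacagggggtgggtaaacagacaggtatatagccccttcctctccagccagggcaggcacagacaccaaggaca

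The last 2 are the matched start whose Rpb1 was highest in SHP-1-KO relative to WT cells and the strongest Rpb1 start seen only in WT. SPDYC encodes a Speedy family activator of cyclin-dependent kinases (chr11:65170153-65170252, plus strand), and FKBP11 a peptidyl-prolyl isomerase of the endoplasmic reticulum (chr12:48925473-48925572, minus strand).
SPDYC: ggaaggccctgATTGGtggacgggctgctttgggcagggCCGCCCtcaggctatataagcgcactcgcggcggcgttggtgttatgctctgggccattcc
FKBP11: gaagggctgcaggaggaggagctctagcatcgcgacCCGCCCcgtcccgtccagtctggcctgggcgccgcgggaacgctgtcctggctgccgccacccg

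Rpb1 was much stronger at starts than elsewhere, and Rpb1-pSer2 only slightly so. The median fold enrichment of WT Rpb1 was 11.9 at starts and 4.91 in the other regions, and that of SHP-1-KO Rpb1 was 9.89 and 4.86. For Rpb1-pSer2 the medians were 3.87 and 3.62 in WT and 4.02 and 3.73 in SHP-1-KO cells. The start regions were also longer for Rpb1, with a median length of 895 bp against 335 bp in WT and 769 bp against 318 bp in SHP-1-KO cells. Lengths of Rpb1-pSer2 regions were 386 bp against 340 bp in WT and 387 bp against 349 bp in SHP-1-KO cells.

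Most of this strength lay in the regions that covered a start. In WT cells 13628 of the Rpb1 start regions (66.4%) overlapped a start, and their median fold enrichment was 23.9, against 4.88 for those that lay wholly before or after it. The SHP-1-KO values were 12860 regions (65.3%), 17.9 and 4.81. Of the Rpb1-pSer2 start regions, 43.3% in WT cells and 44.7% in SHP-1-KO cells overlapped a start, with medians of 4.51 in either cell against 3.61 and 3.73 for the rest. At the 1000-bp limit itself there was no step: 633 WT Rpb1 regions in the last 100 bp inside it had a median of 4.63, and 644 regions in the first 100 bp beyond it had 4.78. The corresponding Rpb1-pSer2 values were 3.59 and 3.65.

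The summits, the points of highest enrichment, lay just downstream of the start with both antibodies, where paused polymerase is known to stand. Among regions that overlapped a start, the 25-bp bin with the most summits was 50 to 75 bp downstream in every list, with 8.74% of WT Rpb1, 8.94% of SHP-1-KO Rpb1, 8.71% of WT Rpb1-pSer2 and 8.98% of SHP-1-KO Rpb1-pSer2 summits. The interval from 1 to 150 bp downstream held 40.5% and 41.0% of Rpb1 summits and 38.8% and 39.8% of Rpb1-pSer2 summits, in WT and SHP-1-KO cells. WT and SHP-1-KO cells thus gave nearly the same profile.

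**Figure D1:**
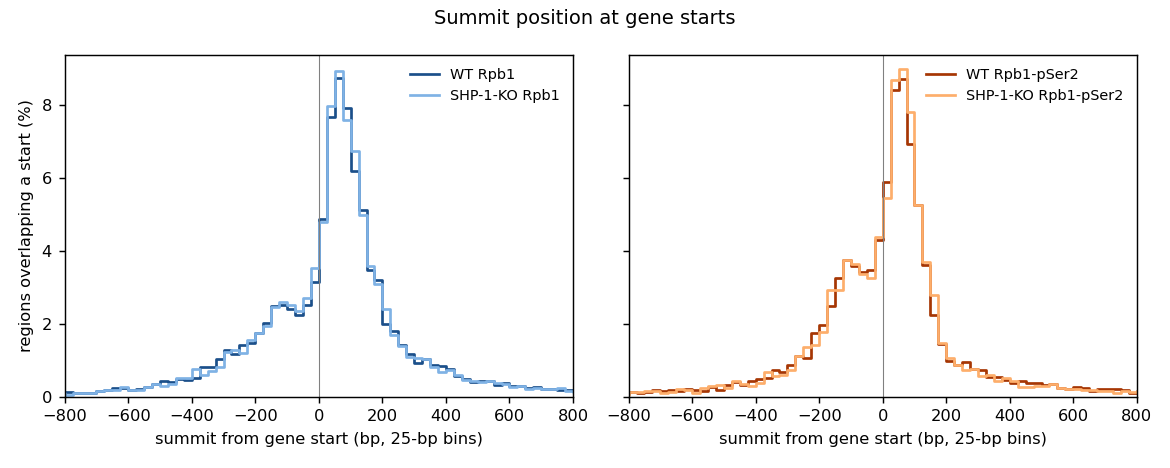
Position of the summit relative to the gene start (bp, downstream positive) as a percent of the regions that overlapped a start, in 25-bp bins. All 4 lists peak at 50 to 75 bp, and a smaller rise stands upstream, highest at 125 to 100 bp before the start.

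A second, smaller rise of summits lay upstream, and its highest bin was 125 to 100 bp before the start in all 4 lists. Summits 1 to 300 bp upstream were 24.4% of WT and 25.1% of SHP-1-KO Rpb1 regions and 31.1% and 30.7% of Rpb1-pSer2 regions. Many promoters are known to fire in both directions, so the regions were searched for a canonical GENCODE start on the opposite strand. Such a start was inside 28.3% of the WT Rpb1 regions with an upstream summit, against 18.4% of those with a summit within 300 bp downstream. The SHP-1-KO shares were 28.8% and 17.8%, and the Rpb1-pSer2 shares were 13.8% and 9.06% in WT and 15.8% and 8.77% in SHP-1-KO cells. Upstream summits therefore came more often with an annotated opposite start in each list, although most had none. Long Rpb1-pSer2 regions reached far into genes, and 8.52% of WT and 8.49% of SHP-1-KO regions over a start had their summit more than 1000 bp from it, against 3.52% and 3.04% for Rpb1. For these the listed enrichment belongs to a point away from the start.

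The highest Rpb1 start in both cells was that of TRIM28, a transcriptional corepressor that acts with zinc finger proteins (chromosome 19 from 58543673 to 58545965 in WT). Its fold enrichment was 169.7 in WT cells and 146 in SHP-1-KO cells, and Rpb1-pSer2 over it was 13.5 and 11.2. The start of CEBPA was also among the highest, at 146 in WT against 133, with a region of 9785 bp in WT over this intronless gene. JUND, an AP-1 subunit, lay in a region assigned to the microRNA gene MIR3188 and had 146 and 105, and BBC3, a BH3-only inducer of apoptosis, lay in a region assigned to MIR3191 and had 157 and 118.

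Other high WT starts, chosen by their WT values, were lower in the SHP-1-KO library, as most coding starts were. Over all coding genes with Rpb1 in both cells, the uncentred log2 ratio of SHP-1-KO to WT had a median of −0.48 and a lower quartile of −0.76. FASN, the fatty acid synthase, had 144 and 88.7, MKNK2, a kinase of the initiation factor eIF4E, 137 and 86.7, and HSP90AA1, an Hsp90 chaperone, 133 and 62.3. INTS6-AS1, at the start of the Integrator subunit gene INTS6, had 128 and 61.9, and FAM53C 129 and 71.7. SLC16A3, the lactate exporter MCT4, stayed high in both at 131 and 115. Of the starts that were among the 10 highest only in SHP-1-KO cells, SLC39A4, a zinc importer, had 51.1 in WT cells and 119 in SHP-1-KO cells and D2HGDH, a mitochondrial dehydrogenase, 89.5 and 119. ACTG1 (gamma actin) had 126 and 115, KLF6 120.0 and 111, and LOC101927666, next to the start of the dynein light chain gene DYNLL2, 106 and 107. Orders within these lists rest on 1 library each.

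The highest Rpb1-pSer2 start regions included long regions over genes of liver and the secretory pathway. MLXIPL, which encodes the carbohydrate-responsive factor ChREBP, was highest in WT at 55.9 and had 21.1 in SHP-1-KO cells. The summit of this WT region lay upstream, at −2721 bp from the assigned start, and no canonical coding start was within 1 kb. At the RefSeq start of MLXIPL used for its promoter, Rpb1-pSer2 was 13.0 in WT cells and 8.99 in SHP-1-KO cells. TNFSF14, a TNF family cytokine, had 48.0 and 16.2, AMBP, the precursor of alpha-1-microglobulin and bikunin, 39.6 and 25.1 anywhere in the region, and HSPA5, the chaperone BiP, 37.0 and 19.0. IGFBP1, an insulin-regulated binding protein of liver, had 36.6 and 15.5. The summit of AMBP was 18318 bp, that of HSPA5 6323 bp and that of IGFBP1 5626 bp downstream, so these values describe the body or end of the gene. FTH1, ferritin heavy chain, was high in both at 34.2 and 32.8, with its summit in SHP-1-KO cells 4005 bp downstream.

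Further WT regions among the highest 10 were assigned to small RNAs or antisense genes within host transcripts, SNORA70 (35.2 and 22.3), SNORD83A (34.3 and 18.9) and GAS5-AS1 (34.4 and 28.3). HNRNPA1, an RNA binding protein of splicing, had 34.4 and 18.4. In SHP-1-KO cells the region assigned to MIR6515, at the start of CALR (calreticulin), was highest at 39.5. A region assigned to P4HB had 24.3 in WT cells and 36.4 in SHP-1-KO cells, ARHGDIA 25.9 and 34.9, and MAP3K12 15.3 and 31.2. The P4HB and MAP3K12 regions had no canonical coding start within 1 kb. Neither did the WT regions assigned to SNORA70, SNORD83A and HNRNPA1. Summits lay 4543 bp downstream for P4HB and 3644 bp for ARHGDIA in SHP-1-KO cells. Within 1 kb of the canonical P4HB start, Rpb1-pSer2 went the other way, at 25.9 in WT cells and 10.5 in SHP-1-KO cells. That WT value equals the one for ARHGDIA, and whether 1 region gave both was not tested. The remaining regions among the highest 10 in SHP-1-KO cells, LOC105372440, RAB26, HERPUD1, SNHG1 and RNF225, had between 28.5 and 33.4 in WT. In SHP-1-KO cells they had between 30.0 and 33.2. Of these, LOC105372440, HERPUD1 and SNHG1 also had no canonical coding start within 1 kb.

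Start regions were assigned to 12229 genes in the WT Rpb1 list and 11827 in the SHP-1-KO Rpb1 list, and to 9055 and 8009 genes in the Rpb1-pSer2 lists. By RefSeq type 10484 of the WT Rpb1 genes were protein-coding, 1120 made long noncoding RNAs, 278 microRNAs and 79 snoRNAs. Rpb1 usually gave 1 region per gene (8029 of the 12229 genes in WT), whereas Rpb1-pSer2 was divided more finely. In the WT Rpb1-pSer2 list 3169 genes had 3 or more start regions, and SEPTIN9, which has many alternative starts, had 46.

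The assignment names only the nearest gene, so genes that share a start were also counted by position. Of 20033 protein-coding genes in GENCODE, 59.8% (11983, 95% interval 59.1 to 60.5) had a WT Rpb1 start region within 1 kb of the canonical start and 57.8% (11588, 57.2 to 58.5) a SHP-1-KO one. The shares for Rpb1-pSer2 were 35.5% (7120, 34.9 to 36.2) and 32.2% (6450, 31.6 to 32.8). Of 18866 long noncoding RNA genes, 18.5% had WT Rpb1 and 13.1% WT Rpb1-pSer2 at the start. Values for the presence patterns, the Rpb1 deciles and the gene lists below are the highest fold enrichment among start regions within 1 kb of this position. Values of unmatched and paired regions belong to the named region, at the start to which it was assigned.

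Presence fell into a few patterns across the 20007 coding symbols. All 4 lists had a region at 5559 genes (27.8%), both Rpb1 lists and neither Rpb1-pSer2 list at 3871 genes (19.3%), and no list at 7727 genes (38.6%). Genes with all 4 had a median WT Rpb1 of 36.5, and genes with Rpb1 alone 22. Only 79 genes had Rpb1-pSer2 in both cells and Rpb1 in neither, with a WT Rpb1-pSer2 median of 4.94. Among these, named after their values were seen, the hexokinase gene HK3 had 14.5 and 10.6 and the cone opsin gene OPN1SW 13.8 and 8.36 in WT and SHP-1-KO cells.

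Starts with more Rpb1 more often carried Rpb1-pSer2 as well. In the lowest decile of WT coding starts by Rpb1 (2.92 to 9.73) 25.5% (23.1 to 28.0) had Rpb1-pSer2, in the fifth decile 58.0% (55.2 to 60.8), and in the highest decile (56.4 to 169.7) 88.9% (87.0 to 90.6). Without Rpb1 the share was 2.07% (1.78 to 2.40). In SHP-1-KO cells the same steps were 19.5%, 57.3%, 84.2% and 1.80%. The median Rpb1-pSer2 level of those that had it ran from 4.96 in the lowest WT decile down to 4.00 in the third and up to 6.17 in the highest. Genes with strong Rpb1 and no Rpb1-pSer2 region in either cell, named after their values were seen, included, in order of the lower of both values, the amino acid transporter SLC16A10 (88.7 in WT cells and 74.3 in SHP-1-KO cells), ZNF84 (84.0 and 73.7) and INPP5A (78.1 and 71.4), and further down the growth factor gene HBEGF (82.9 and 65.4) and NELFCD, a subunit of the pausing complex NELF (59.1 and 67.0).

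By regions, 55.6% (54.9 to 56.3) of the WT Rpb1 start regions overlapped a Rpb1-pSer2 region of the same cells, against 58.9% of all WT Rpb1 regions. In SHP-1-KO cells this was 52.0% (51.3 to 52.7), against 58.2% of all. The reverse share differed more: 53.8% of WT and 55.7% of SHP-1-KO Rpb1-pSer2 start regions overlapped a Rpb1 region, against 24.2% and 26.1% of all Rpb1-pSer2 regions. The Rpb1 and Rpb1-pSer2 lists of a cell type were called against the same input library.

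WT and SHP-1-KO cells were next compared, to see which starts had polymerase in one and not the other. Of the WT Rpb1 start regions 76.5% (75.9 to 77.1) were overlapped by a SHP-1-KO Rpb1 region, which left 23.5% (4820) without one, against 38.1% of all WT Rpb1 regions. Of the SHP-1-KO Rpb1 start regions 13.2% (2610) had no WT counterpart, against 25.1% of all. For Rpb1-pSer2 the unmatched share was 37.9% (9306) in WT cells and 23% (4685) in SHP-1-KO cells, against 47.8% and 30.1% of all regions. The WT lists are the longer ones for both antibodies.

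Sharing followed strength. In the lowest quintile of WT Rpb1 regions by fold enrichment 33.5% (31.7 to 35.4) of start regions were shared, and in the highest quintile 99.9% (8572 of 8581). At equal strength, start regions differed little from the others in the WT Rpb1 list, with 33.5% against 30.6% in the lowest quintile, 54.3% against 53.4% in the third and 89.2% against 83.6% in the fourth. In the other 3 lists they were shared more often in the lower quintiles, for example 56.7% against 46.1% in the lowest quintile of SHP-1-KO Rpb1 and 45.7% against 36.9% in that of WT Rpb1-pSer2.

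**Figure D2:**
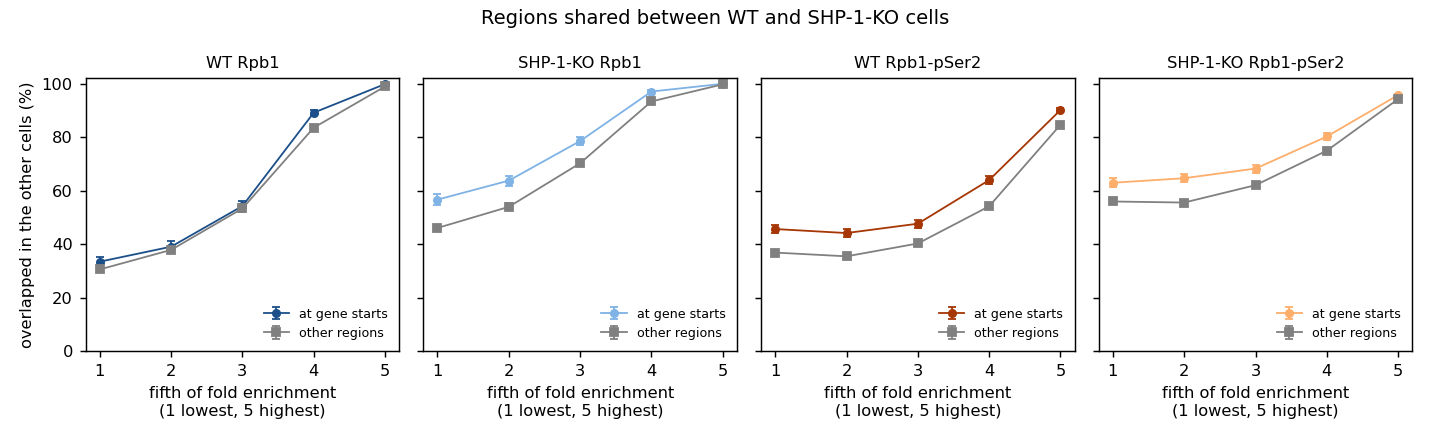
Percent of regions overlapped by a region of the same antibody in the other cells, by quintile of fold enrichment within each list, with 95% Wilson intervals. Start regions (colour) and other regions (grey) rise together, and for WT Rpb1 from 33.5% to 99.9% at starts.

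Counted by coding gene the agreement was closer, since a gene needs only 1 region near its start. Of 11978 coding genes with WT Rpb1, 95.5% (11442) also had SHP-1-KO Rpb1, with 536 genes in WT alone and 141 in SHP-1-KO cells alone. The genes with Rpb1 in WT alone had a median of 5.51, against 30.0 in WT for genes with both. For Rpb1-pSer2 5709 genes had both, 1408 WT alone and 738 SHP-1-KO alone.

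The strongest Rpb1 start region seen only in WT was that of FKBP11, at 32.0 (chromosome 12 from 48924822 to 48925813, −log10 q 86.5), which also had Rpb1-pSer2 of 5.36 in WT, with no SHP-1-KO region. An alternative start of MEGF6, a gene of EGF-like repeats, had a region of 16435 bp in WT at 28.5 for Rpb1 and one of 36825 bp at 33.5 for Rpb1-pSer2, and neither had a counterpart in SHP-1-KO cells. C2CD4A had 25, ALDOC (aldolase C) 23.6, ICAM5, a neuronal adhesion molecule, 22.9, HLA-F-AS1 19.6, PSD4, an exchange factor for ARF6, 19.5, MST1R, the receptor tyrosine kinase RON, 18.1, MYRIP 18 and FXYD1 17.8. Of these 10 regions 6 overlapped a WT Rpb1-pSer2 region and 0 a SHP-1-KO one. Among all WT Rpb1 start regions 55.6% overlapped a WT Rpb1-pSer2 region.

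The strongest Rpb1 start region seen only in SHP-1-KO cells was that of GALNT13, an O-glycosylation enzyme, at 19.5 (chromosome 2 from 153871216 to 153872670, −log10 q 51.5), over a start other than the canonical one used for its promoter. LINCR-0002 had 18.6, MYL9, a regulatory light chain of myosin II, 18.3, EXTL1 14.2, PEX7, the import receptor for peroxisomal proteins, 11.7 and DPP10-AS1 11.5. FGD1 and BEX2, both on the X chromosome, had 10.6 each, DSC3, a desmosomal cadherin, 10.5, and SIRPA, a membrane receptor whose tail is known to bind SHP-1, 10.3. Only LINCR-0002 among these 10 had Rpb1-pSer2, at 5.09 in SHP-1-KO cells, where 52.0% of all Rpb1 start regions overlapped it.

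Starts with an unmatched Rpb1-pSer2 region had Rpb1 in many cases. After MEGF6, the highest seen in WT alone were LINGO4 (13.2), EDRF1 (11.2), BDH1, an enzyme of ketone body metabolism (10.7), CCDC144NL (9.40), CGREF1 (9.34), PRKG1-AS1 (8.14), MIR551A (7.90), the ubiquitin conjugating enzyme UBE2S (7.88) and C2CD4D (7.71). All 10 had Rpb1 in WT and 5 had Rpb1 in SHP-1-KO cells, and UBE2S had 95.1 and 41.9. Those seen in SHP-1-KO cells alone were ACAT1, a mitochondrial thiolase (9.07), SPDYC (7.68), the translation factor EIF5A (7.68), BAMBI (7.63), UBR1 (7), KPNA2 (6.84), VASP (7.05), and 3 genes of the secretory pathway, ERP44 (7.30), LMAN1 (7.05) and ERO1B (6.95). All 10 had Rpb1 in both cells, and for ACAT1 it was 30.6 in WT cells and 39.1 in SHP-1-KO cells.

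Paired regions gave the size of the difference. Over all 24979 Rpb1 pairs the median log2 ratio of SHP-1-KO to WT was −0.28, and over the 14414 start pairs it was −0.40, or −0.12 after centring on all pairs. The other pairs had a centred median of 0.18. For Rpb1-pSer2 the median was −0.04 over all 44080 pairs and −0.04 over the 12956 start pairs. Fold enrichment of Rpb1 was thus lower at starts in the SHP-1-KO library than in the WT library, and that of Rpb1-pSer2 hardly moved. Both comparisons divide by the same pair of inputs, and enrichment efficiency of a library cannot be told apart from the cells.

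The Rpb1 shift depended on strength. In the lowest quintile of pairs by the mean of both libraries (1.76 to 5.08) starts and other regions both had a centred median of 0.28. In the third quintile (6.81 to 13.1) starts had −0.13 and the others 0.05, in the fourth (13.1 to 26.7) −0.23 and −0.10, and in the highest −0.17 and −0.17. The Rpb1-pSer2 medians of starts and others were within 0.02 of each other in every quintile. By chromosome, the centred median of Rpb1 start pairs was below 0 throughout, from −0.25 on X and −0.22 on chromosome 10 to −0.04 on chromosome 14.

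Past 2-fold after centring, 477 Rpb1 start pairs (3.31%) were lower in SHP-1-KO cells, against 2.67% of all pairs, and 213 (1.48%) were higher, again against 2.67% of all. Without centring the split was 1367 lower and 59 higher. For Rpb1-pSer2 256 start pairs (1.98%) were lower and 215 (1.66%) higher, against 1.49% and 1.26% of all pairs. About 95.2% of Rpb1 and 96.4% of Rpb1-pSer2 start pairs stayed within 2-fold.

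**Figure D3:**
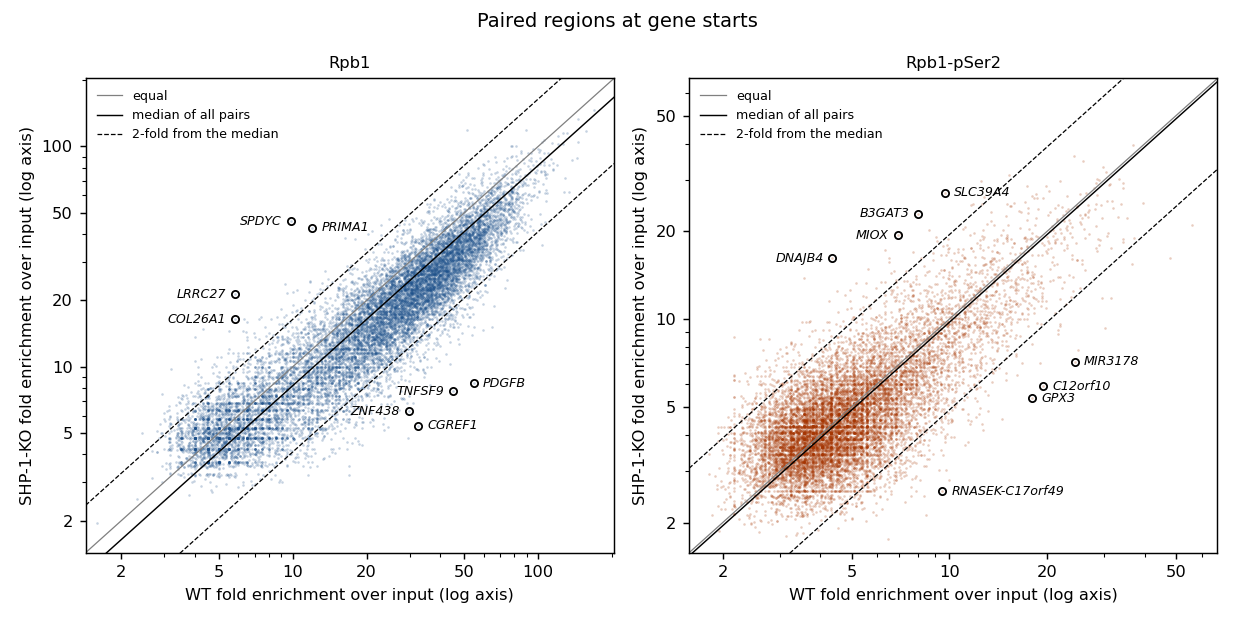
Fold enrichment over input at each paired start region in WT (x) and SHP-1-KO (y) cells, both axes logarithmic, for Rpb1 and Rpb1-pSer2, with the median of all pairs and the 2-fold limits around it. The Rpb1 cloud lies below the line of equal values, and SPDYC (9.80 and 45.8) and PDGFB (54.8 and 8.45) stand far from it.

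The Rpb1 starts that were lowest in SHP-1-KO relative to WT cells included signalling genes. PDGFB, the B chain of platelet-derived growth factor, had 54.8 in WT cells and 8.45 in SHP-1-KO cells, a centred log2 difference of −2.41 (chromosome 22 from 39240813 to 39246149). CGREF1, a secreted growth regulator, had 32.5 and 5.41 (−2.30), and TNFSF9, the ligand of 4-1BB, 45.1 and 7.77 (−2.25). This CGREF1 region began at 27118343 on chromosome 2, whereas its unmatched WT Rpb1-pSer2 region named above began at 27104562. ZNF438 (29.7 and 6.28), the kinase gene AATK (23.6 and 5.19), the repressor gene KLF11 (24.4 and 5.35), ABCB9 (31.0 and 6.82), SLURP1 (36.4 and 8.27), EFR3B (19.2 and 4.43) and DENND4C (65.1 and 15.1) followed, with centred differences from −1.96 to −1.83. Of these 10 regions 5 overlapped a Rpb1-pSer2 region in WT cells and 0 did in SHP-1-KO cells, and for PDGFB that WT value was 5.62. Among all Rpb1 start regions 55.6% overlapped one in WT cells and 52.0% in SHP-1-KO cells.

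SPDYC was the furthest above, with Rpb1 of 9.80 in WT against 45.8 in SHP-1-KO cells, or 2.51 (chromosome 11 from 65169500 to 65170462). LRRC27 had 5.80 and 21.4 (2.17), PRIMA1, the membrane anchor of acetylcholinesterase, 12.0 and 42.8 (2.12), and COL26A1 5.80 and 16.4 (1.78). TSSK4 (5.48 and 14.5), H2AFY2, which encodes a macroH2A histone (6.31 and 16.5), ADHFE1 (9.28 and 23.8), SUB1, the coactivator PC4 (4.24 and 10.8), RASSF8-AS1 (6.51 and 15.9) and DNAJB4, an Hsp40 cochaperone (16.3 and 38.3), had differences from 1.69 to 1.52. Of these 10 regions 3 overlapped a Rpb1-pSer2 region in WT cells and 7 in SHP-1-KO cells, where the shares of all Rpb1 start regions were 55.6% and 52.0%.

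For Rpb1-pSer2 the largest differences were smaller, and all 10 of the lowest regions overlapped Rpb1, from 12 at GPX3 to 107 at DCXR in WT. Among all WT Rpb1-pSer2 start regions 53.8% overlapped a WT Rpb1 region. RNASEK-C17orf49 had 9.52 in WT cells and 2.56 in SHP-1-KO cells (−1.86), MIR3178 24.4 and 7.15 (−1.73), GPX3, the plasma glutathione peroxidase, 18 and 5.35 (−1.72), C12orf10 19.5 and 5.88 and the phosphatase gene PPM1G 9.79 and 3.03. ERRFI1, an inhibitor of the EGF receptor, had 30.2 and 9.35, DCXR 14.5 and 4.52, APOC2, the activator of lipoprotein lipase, 25 and 7.85, BUD13 9.27 and 3.04, and NOSIP 12.7 and 4.17. Rpb1 over the same 10 regions was also lower in the SHP-1-KO library, from 37.8 and 11.1 at APOC2 and 107 and 45.5 at DCXR to 66.3 and 50.8 at ERRFI1, as it was at 87.5% of all coding genes.

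Rpb1-pSer2 was furthest above at DNAJB4, with 4.36 in WT against 16.2 in SHP-1-KO cells (1.93). B3GAT3, of glycosaminoglycan synthesis, had 8.02 and 23, SLC39A4 9.69 and 27.2, MIOX, of inositol breakdown, 6.94 and 19.4, DMPK 3.51 and 9.81, and the tyrosine kinase gene SRC 4.51 and 12.5. LINC00869 had 7.11 and 19.6, ELL3, of the ELL elongation factor family, 6.35 and 17.3, LOC100996419 4.25 and 11.5 and WARS, a tRNA synthetase, 3.61 and 9.74. Rpb1 over these regions was higher in SHP-1-KO cells at 8 of the 10, for example SLC39A4 (51.1 and 119), B3GAT3 (47.7 and 65.5) and DMPK (11.8 and 12.7), and lower at ELL3 (16.4 and 13.1) and WARS (32.9 and 30.0).

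At 5754 places a start pair of each antibody overlapped, with −log10 q of at least 5 throughout. After centring, both were past 2-fold lower at 12 of them, CCDC24, FCGRT, LINC02139, MAGED1, NOSIP, PPM1G, RIDA, SEC11A, SERPINA6, SLC13A5, SLC34A1 and UQCR11. Among them, FCGRT, the neonatal Fc receptor that recycles albumin, had Rpb1 of 104 and 35.6 and Rpb1-pSer2 of 9.40 and 4.58, SERPINA6, corticosteroid-binding globulin, 43.5 and 16.6 and 10.1 and 3.94, and SLC13A5, a citrate importer, 61.0 and 23.6 and 12.6 and 4.36, in WT and SHP-1-KO cells. Both were past 2-fold higher by the centred ratios at 7, CCNB1IP1, DNAJB4, MIOX, SLC39A4, TM4SF5, ZBTB7B and SPRY1, an inhibitor of receptor tyrosine kinase signalling (Rpb1 11.7 and 21.8, Rpb1-pSer2 4.25 and 9.20). These 19 were named after their values were seen, and the antibodies share the input libraries.

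Gene lists were then read by role, each beside all coding genes. A WT Rpb1 start region was present at 59.9% of the 20007 coding symbols and a SHP-1-KO one at 57.9%, and a Rpb1-pSer2 region at 35.6% and 32.2%. The medians of those present were 29.0 and 20.8 for Rpb1 and 4.69 and 4.71 for Rpb1-pSer2. The uncentred log2 ratio of SHP-1-KO to WT was below 0 at 87.5% of coding genes for Rpb1 (median −0.48) and at 53.8% for Rpb1-pSer2 (median −0.04), so a list lower than these values in Rpb1 is only one that exceeds a general difference.

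**Figure D4:**
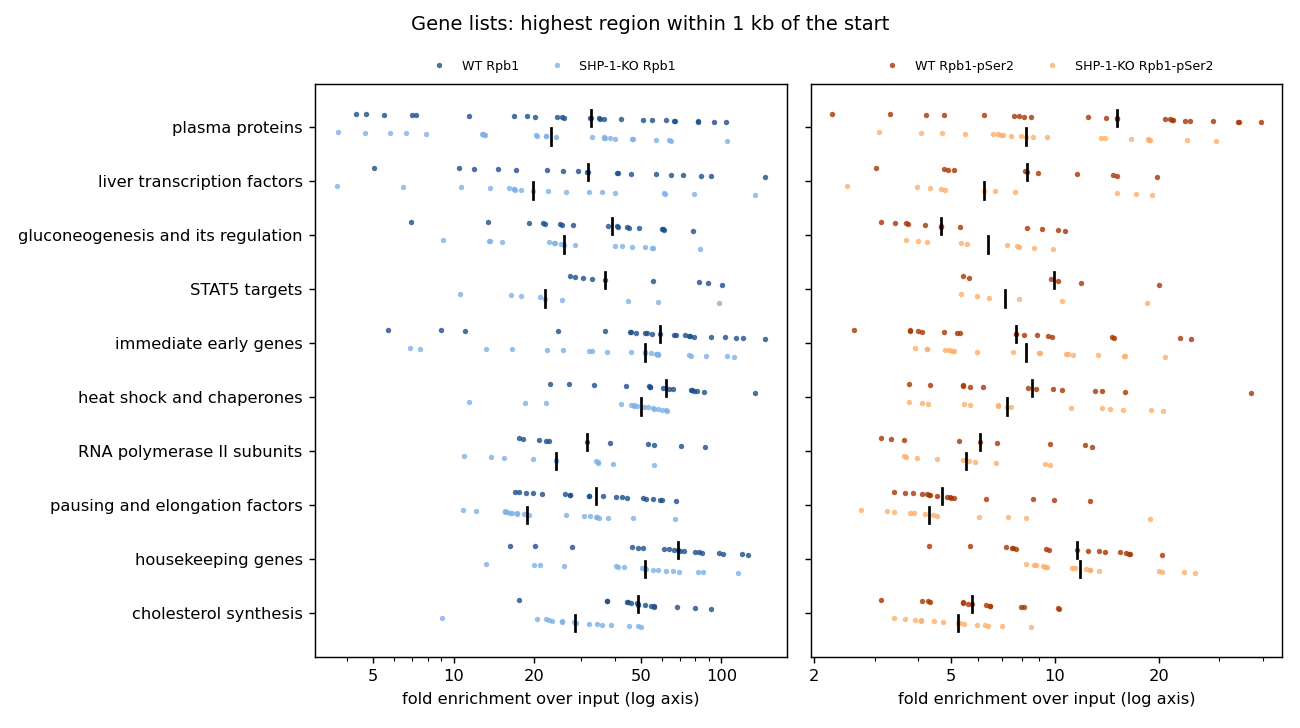
Fold enrichment over input (log axis) at the starts of genes in 10 lists, 1 point per gene with a region within 1 kb, for WT and SHP-1-KO cells and both antibodies, with the median as a black bar. Rpb1 medians are lower in SHP-1-KO cells in each list, and plasma protein genes have the highest Rpb1-pSer2 median in WT, at 15.1.

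Plasma protein genes, which hepatocytes express, mostly had polymerase at the start. Of 32, 27 had WT Rpb1 and 26 SHP-1-KO Rpb1 at the start, with medians of 32.7 and 23.2. Their median Rpb1-pSer2 was 15.1 in WT over 23 genes, of which 12 had a region with its summit within 1 kb of the start, and 8.23 in SHP-1-KO cells over 21, where housekeeping genes had 11.9 and immediate early genes 8.27. There were 5 genes with no start region in any list (FETUB, HPX, F9, PLG and KNG1). RBP4 had the highest Rpb1 in the list, at 104 and 105, followed in WT by TF, transferrin, at 93.8 and 46.7. ALB, albumin, had 24.4 and 24.1 with Rpb1-pSer2 of 15.1 and 18.6. AFP, alpha-fetoprotein, was highest in SHP-1-KO cells relative to WT, at 20.2 in WT against 40.2, while its Rpb1-pSer2 was 24.7 and 24.2. AHSG had 54.9 and 38.3, with Rpb1-pSer2 of 34.2 and 29.4.

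Complement C3 (81.8 and 36.7), the fibrinogen gene FGG (32.4 and 13.1) and coagulation factor gene F10 (42.0 and 20.4) had log2 ratios of −1.16, −1.31 and −1.04, without centring. The apolipoprotein genes APOA1 (51.0 and 46.3), APOA2 (66.3 and 57.0) and APOB (82.1 and 63.8) differed less. For Rpb1-pSer2, 17 of the 20 plasma protein genes with a region in both cells were below 0, with a median of −0.56. Where only regions with their summit within 1 kb of the start were taken, 9 genes remained, 7 of them below 0, and the median was −0.08. ORM1 and ORM2 are near-identical copies, and their values are uncertain.

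Of 22 liver transcription factor genes, 19 had Rpb1 at the start in each cell, 18 of them in both. CEBPA led, followed in WT by FOXA3 (91.5 and 61.0), CEBPB (84.0 and 79.0), FOXA1 (71.9 and 61.3) and GATA4 (64.7 and 40). FOXA1, a pioneer factor, had little Rpb1-pSer2 at 3.03 and 2.49, whereas CEBPB had 15.1 and 19.1 and NR0B2, the bile acid responsive corepressor SHP, 19.8 and 17.2. Of the 18 with Rpb1 in both cells, 16 were below 0 with a median of −0.39, against −0.48 for all coding genes. RXRA, the partner of many nuclear receptors, was lowest at 45.8 and 16.8, and ONECUT1 had 40.6 and 16.1. HNF4A, a master regulator of hepatocyte genes, had 25.6 and 19.8.

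In gluconeogenesis 18 of 21 genes had WT and 17 SHP-1-KO Rpb1. PCK1, the cytosolic phosphoenolpyruvate carboxykinase, was the one without it in SHP-1-KO cells: its start had a WT Rpb1 region at 6.96 (chromosome 20 from 57560956 to 57561380), above 38.6% of WT start regions or equal to them, and no SHP-1-KO region with either antibody. Weaker WT Rpb1 regions of 4.08 and 4.88 and a WT Rpb1-pSer2 region of 2.69 were assigned to it further downstream. PCK1 was among the 536 coding genes with Rpb1 in WT alone, whose median was 5.51. The mitochondrial isoform gene PCK2 had 59.8 and 82.9. G6PC1, FBP1 and FBP2 had no start region in any list. Higher in SHP-1-KO than in WT Rpb1 were also GOT1 (27.9 and 39.9) and CREB1 (41.2 and 55), but 12 of the 17 genes with both were below 0, with a median of −0.50. EP300, a histone acetyltransferase, had 49.1 and 23.9 and the glucocorticoid receptor gene NR3C1 24.9 and 13.6. PPARGC1A, the coactivator PGC-1alpha, had 19.1 and 13.7. For Rpb1-pSer2 the median log2 ratio of 10 genes was 0.03.

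PTPN6 itself carried Rpb1 over an upstream alternative start (chromosome 12 from 6945772 to 6947136), at 24.0 in WT cells and 17.2 in SHP-1-KO cells, with Rpb1-pSer2 of 4.03 and 5.24. The canonical start at position 6951356 had no start region within 1 kb in any list. The edited exons lie in the gene body, so occupancy of the start does not check the knockout.

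STAT5 target genes, among them feedback inhibitors of cytokine signalling, had Rpb1 at 9 of 12 starts in both cells. All 9 were below 0 with a median of −0.74, and SOCS3 (27.3 and 10.6), PIM2 (55.6 and 25.3) and CISH (33.0 and 16.4) were lowest. SOCS1, at 100.2 and 97.7, hardly differed, and MCL1, an antiapoptotic BCL2 relative, had 89.0 and 57.8. Rpb1-pSer2 of the 6 genes with it had a median of −0.04, so the 2 antibodies differed here, as they did over all coding genes.

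Immediate early genes, which are known to hold paused polymerase, had some of the highest Rpb1: 23 of 23 had it in WT, at a median of 58.9, and 22 in SHP-1-KO cells, at 51.7. JUND led, followed in WT by KLF6 and JUNB (113 and 87.6). EGR1 had 103 and 76.7 with Rpb1-pSer2 of only 5.21 and 4.27. FOS (67.4 and 32.1), NR4A1 (45.4 and 22.3), CCN1 (51.9 and 25.7) and SRF (36.9 and 16.5) were more than 2-fold lower without centring, while JUN (52.6 and 58.2) and BTG2 (45.8 and 57.4) were higher. KLF4 had 11 in WT and no SHP-1-KO region.

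All 16 heat shock and chaperone genes had Rpb1 in both cells, with medians of 62.0 and 50.0, and 15 were below 0. HSP90AA1, the inducible Hsp90, was lowest at 133 and 62.3, with Rpb1-pSer2 of 16 and 7.47, whereas its constitutive relative HSP90AB1 had 43.9 and 42.1 with Rpb1-pSer2 of 8.37 and 20.6. HSPA8 had 53.6 and 56.1. HSPA1A and HSPA1B are near-identical copies with uncertain values, and HSPD1 and HSPE1 share 1 divergent start and 1 region (53.9 and 47.0).

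Of the 12 RNAPII subunit genes 11 had Rpb1 in both cells. POLR2A, which encodes Rpb1 itself, had 70.5 in WT cells and 56.2 in SHP-1-KO cells, with Rpb1-pSer2 of 12.8 and 9.70. POLR2L had the largest difference, 87.1 and 34.0, and POLR2G was higher in SHP-1-KO cells, at 17.5 and 24.2. All 20 pausing and elongation factor genes had Rpb1 in both cells, and 19 were below 0 with a median of −0.61. SUPT5H, a subunit of DSIF, had 44.3 and 17.3, the P-TEFb kinase gene CDK9 32.1 and 30.6, its inhibitor gene HEXIM1 67.9 and 46.6, and PAF1 36.0 and 19.2 with Rpb1-pSer2 of 8.64 and 2.73.

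All 16 cholesterol synthesis genes with Rpb1 in both cells were below 0, with a median of −0.77 and a range from −1.26 to −0.11. HMGCS1 had 56.2 and 25.4, LSS 51.9 and 23.3, MVK 49.0 and 20.4, and the regulator genes SREBF1 and SREBF2 68.2 and 35.8 and 44.8 and 25.3. Rpb1-pSer2 was below 0 at 11 of 15, with a median of −0.13. INSIG1 had no start region in any list. Of the housekeeping genes 19 of 20 had Rpb1 in both cells, with medians of 68.9 and 52.0, and ACTB had 119 and 82.1 with Rpb1-pSer2 of 14 and 25.5.

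Markers of other cells were nearly absent from the start regions. Of 16 blood cell markers 13 had no region in any list, and of the rest LYZ had Rpb1 of 39.2 in WT cells and 36.0 in SHP-1-KO cells and HBA1 had 1 weak region. Of 12 neuronal markers 11, of 10 muscle and heart markers 9, and of 14 endothelial, stellate and Kupffer cell markers 12 had none, with TNNT2 (WT Rpb1 12.0, WT Rpb1-pSer2 22.9), SLC17A7, PECAM1 and ACTA2 as the exceptions. Of 6 bile duct markers 4 had Rpb1 in both cells, and KRT19 had 59.6 and 14.7, SOX9 41.4 and 38.8 and EPCAM 32.1 and 23.3. PTPRC, HBB, SYN1, MYH7 and CDH5 had no start region. The summits behind the SHP-1-KO Rpb1 value of LYZ and the WT Rpb1-pSer2 value of TNNT2 lay more than 1 kb from the canonical start.

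The promoters of genes with a start region had a distinct sequence. Of 15842 coding promoters in the RefSeq table (250 bases before to 50 after the start), 9648 had WT Rpb1 within 1 kb, and their median G and C content was 66.3%, against 56.0% for those without. Their ratio of observed to expected CpG was 0.861, against 0.379. The GC box GGGCGG, searched like all motifs on both strands, was in 75.4% (74.5 to 76.3), against 61.0% of all coding promoters, and TATAAA was in 4.71% (4.30 to 5.15), against 9.42% of all. Promoters with SHP-1-KO Rpb1 held nearly the same shares, 75.8% and 4.51%.

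Of the other motifs, CCAAT was in 37.1% of promoters with WT Rpb1 and 36.4% of all, the E box CACGTG in 10.7% and 8.86%, the cyclic AMP response element TGACGTCA in 3.57% and 2.71%, and TTCNNNGAA, the STAT motif, in 5.93% and 6.70%. The ETS motif CCGGAAG, added after the data were seen, was in 21.5% and 14.6%, and in 3.79% of promoters without WT Rpb1. A match is a description of the letters and not of a bound factor.

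Promoters with all 4 lists and those with Rpb1 alone differed as well. Rpb1 without Rpb1-pSer2 in both cells went with 68.3% G and C, GGGCGG in 79.7%, TATAAA in 2.91% (2.37 to 3.57) and CCGGAAG in 17.1%. All 4 lists together went with 65.7%, 74.0%, 6.01% (5.35 to 6.74) and 25.3%. Promoters with no region in any list had a median of 56.0% and TATAAA in 17.1%.

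Sequence also tracked the level. From the lowest to the highest decile of WT Rpb1 the median G and C content went from 62.0% to 71.0% and GGGCGG from 59.0% to 86.5%. TATAAA had no such slope: it was in 8.29% (6.71 to 10.2) of the lowest decile, 2.90% (2.02 to 4.17) of the seventh and 8.81% (7.18 to 10.8) of the highest. With TATAAA counted only at 40 to 16 bases before the start on the strand of the gene, a window set after the data were seen, the shares were 3.94%, 0.726% and 5.6%. The low end was less marked in SHP-1-KO cells, with TATAAA in 5.56% (4.27 to 7.22) of the lowest and 8.66% (7.02 to 10.6) of the highest decile, and in the window 2.03% and 5.45%. CEBPA, RBP4 and FOXA3, shown above, belong to this highest group.

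Rpb1-pSer2 followed another course. From its lowest to its highest decile in WT the median G and C content stayed between 64.7% and 66.7%, while TATAAA went from 3.80% (2.52 to 5.69) to 12.8% (10.3 to 15.7). In SHP-1-KO cells it went from 4.93% to 12.9%. The highest decile thus had TATAAA more often than the 9.42% of all coding promoters, and the lowest less often. The deciles rank the highest region within 1 kb, and the summit of a long Rpb1-pSer2 region can lie away from the start. The same shares were not computed by summits near the start.

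**Figure D5:**
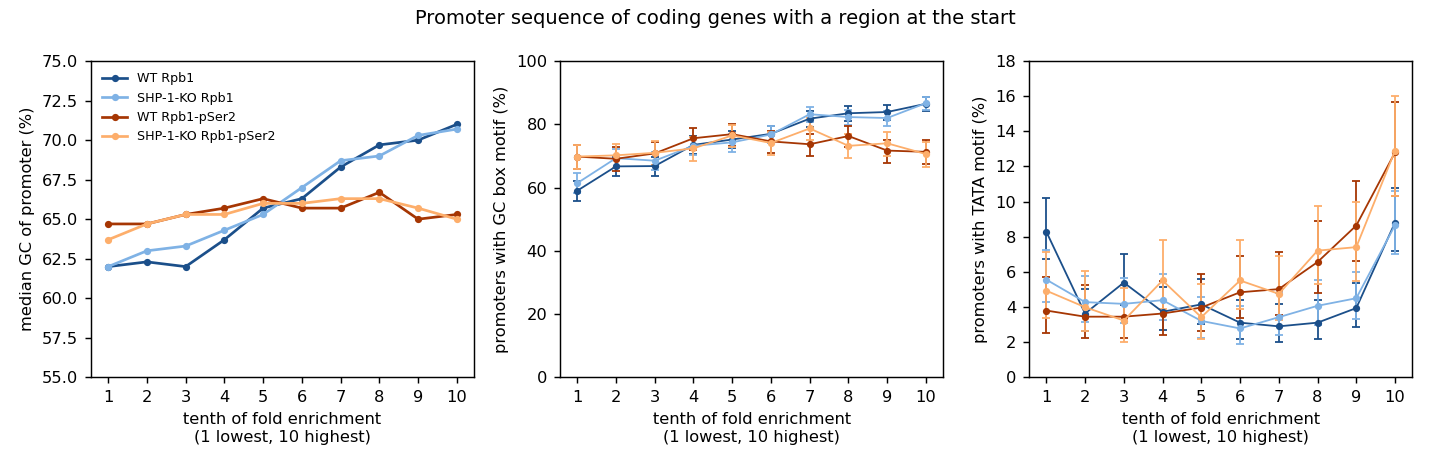
Median G and C content, percent with the GC box GGGCGG and percent with TATAAA in the promoters of coding genes, for the 4 lists. Deciles are of the highest fold enrichment among start regions within 1 kb, whose summit may lie further away. Shares have 95% Wilson intervals. G and C content rises with Rpb1 (62.0% to 71.0% in WT) and stays level with Rpb1-pSer2, for which TATAAA rises from 3.80% to 12.8% in WT.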

How the data were processed

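ChIP-seq with antibodies to Rpb1 and Rpb1-pSer2 was done on 1 library per antibody and cell type, so no value has a replicate and no test across samples was run. The 2 input libraries were not analysed here. The authors' pipeline (MUGQIC) used Trimmomatic for trimming and BWA for alignment to hg38, and MACS2 narrow peaks were called for each library, with the matching input as control. Tool versions and read depth are not given in the sources used here. The deposited lists give, per region, a ratio (summit fold enrichment relative to input), the −log10 q-value and the authors' nearest gene and distance. A deposited table of the authors' own csaw comparison of Rpb1 between the cells (p-values and counts of windows) was not used.

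Lists were read with Python 3.11.15 and pandas 2.3.3, and overlaps of at least 1 bp were found with bedtools 2.31.1. Gene starts were those of canonical transcripts in GENCODE release 44, and promoters those of RefSeq on GRCh38.p14, 1 per coding gene, nearest the canonical start. Regions of WT and SHP-1-KO lists were paired when each was the other's overlapping region of highest fold enrichment. The log2 ratio of SHP-1-KO to WT was centred on the median of all pairs of the antibody, and 2-fold was the limit. Shares have 95% Wilson intervals, which cover counting error only. The overlap and pairing steps were tested on simulated data.

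The genes named are PCK1 and PTPN6, the 10 highest starts of each list, the 10 pairs per antibody that were lowest and highest past 2-fold with a −log10 q of at least 5 in both lists, the 10 highest start regions of each list without a counterpart, and the members of 15 gene lists. Members, lists and rules were chosen with earlier results of these data known. Alternatives were a stricter q-value, shorter distances, other overlaps, limits and centring, and the omission of 1p and 12p. A few members of these groups are not reported here.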

Additional observations from a re-analysis of the deposited data

Results flagged for a closer look

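At 1 start, that of RAB24 (chromosome 5 from 177311621 to 177312708), the 2 antibodies moved past 2-fold in opposite directions between the cells. Rpb1 was 12.9 in WT cells and 5.22 in SHP-1-KO cells, a centred log2 difference of −1.03, and Rpb1-pSer2 was 3.77 and 9.13, or 1.31. The gap between the 2 differences was 2.34 on the log2 scale. It was 1 of 5754 starts with a pair of each antibody, each value is from 1 library, and the difference was not tested.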

How the results depend on the processing

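No paired analysis was possible because each condition has 1 library and no result comes from a test; depth is unknown and limits which weak regions were listed. Of 96 recomputed values for the main results 64 stayed close. For counts, close meant within 1.5-fold of the main value, and for shares and medians within its 95% interval. Regions that overlap the start numbered 13628 and 12860 for Rpb1 and 10621 and 9103 for Rpb1-pSer2, in WT and SHP-1-KO cells, and with them alone the median summit was at 61 bp in WT cells and 60 bp in SHP-1-KO Rpb1, from 65 and 68 bp, and the median G and C content with WT Rpb1-pSer2 65.0%. With −log10 q of at least 5, 14745 and 12453 Rpb1-pSer2 start regions were left, the shared shares were 88.7% and 94.7% for Rpb1 and 77.8% and 87.7% for Rpb1-pSer2, Rpb1 start regions with Rpb1-pSer2 were 58.5% and 55%, Rpb1 pairs past 2-fold higher were 118, and Rpb1-pSer2 pairs past 2-fold 138 lower and 109 higher. A reciprocal overlap of 50% gave shared shares of 59.0% and 61.2% for Rpb1 and 35.8% and 42.7% for Rpb1-pSer2, Rpb1 start regions with Rpb1-pSer2 of 11.6% and 11.2%, and 311 lower Rpb1 pairs. Without centring 1367 Rpb1 pairs were lower and 59 higher. A limit of 1.5-fold gave 2156 lower and 1087 higher Rpb1 pairs and 1367 and 1249 for Rpb1-pSer2. Without 1p and 12p the WT Rpb1-pSer2 share was 62.7%. With summits within 1 kb only, chosen after seeing the data, the Rpb1-pSer2 medians of log2 ratios turned to 0.09 for immediate early and −0.07 for housekeeping genes, from −0.03 and 0.21. The causes of these moves were not tested.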
